A study of Mus musculus with 16 samples.

Results

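The killer cell lectin-like receptors studied here are 7 genes of mouse chromosome 6, Klrg1, Klrb1c, Klre1, Klrd1, Klrk1, Klrc2 and Klrc1, out of 21938 protein-coding genes. They were chosen by name in the GENCODE M21 annotation of the GRCm38 build, by a rule that uses no measured value. Earlier results of these data were known when they were chosen. For each gene, the peaks of open chromatin that overlapped the gene or the 20 kb to each side, called its window, were read from 16 ATAC-seq libraries, and a library held a gene when at least 1 peak lay in that window. ATAC-seq finds open chromatin by letting a transposase cut it and add sequencing adapters. The libraries came from effector (TE) and memory (TM) T cells of 2 genotypes, in 4 groups of 4 libraries, which are WT TE, WT TM, TPdh-/- TE and TPdh-/- TM. WT cells are labelled TPdh+/+. TPdh-/- cells came from B6.129P2-Pdha1tm1ptl/J mice bred with the Cre line B6.Cg-Tg(Cd4-cre)1Cwi/BfluJ, in which Cre is driven from the Cd4 promoter and the E1 alpha subunit of the pyruvate dehydrogenase complex is deleted in T cells. Per the study's methods, mice were male and female and 8 to 12 weeks old, and OT-I cells, whose receptor sees a peptide of ovalbumin, were activated with that peptide for 3 days and then kept for 4 days in IL-2 to give TE or in IL-15 (10 ng/mL) to give TM. The methods give this culture for TE and TM in general and not for the ATAC-seq libraries in particular. For ATAC-seq of TM, the paper's figure legend says that splenic T cells were differentiated as for its other TM assays. The labels do not say which mouse or culture each library came from, so a p-value measures the spread between libraries, which may be technical. Whether the WT mice carried Cre is not given in the sources used here.

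Killer cell lectin-like receptors are C-type lectin-like proteins of the cell membrane, encoded in the natural killer (NK) gene complex or, for Klrg1, away from it on the same chromosome. NK cells use them to read ligands on other cells, and CD8+ T cells gain several of them after activation, Klrg1 being a common mark of terminally differentiated effector cells. Some members inhibit the cell through phosphatases, whereas others activate it through the adaptor proteins Hcst and Tyrobp.

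Of 55 open regions in the windows, 42 were seen in a single library, so the sequences below are those of the 6 regions that at least 3 of the 16 libraries held, the places where separate lists overlapped most. Each is 151 bases around the median summit, 5′ to 3′ on the plus strand of GRCm38, from RefSeq. Capitals mark a match, on either strand, to a motif of T-box factors (GGTGTGA), RUNX factors (TGTGGTT), AP-1 (TGANTCA), STAT factors (TTCNNNGAA) or ETS factors (AGGAAGT), the only motifs searched. The first pair lies beyond the 3′ end of Klrg1 (chr6:122257556-122257706 and chr6:122259056-122259206), the next pair on either side of Klrb1c (chr6:128764165-128764315 and chr6:128799698-128799848), the fifth at the start of Klrd1 (chr6:129591561-129591711) and the last between Klrd1 and Klrk1 (chr6:129608495-129608645).
Klrg1 downstream, GA-rich repeat: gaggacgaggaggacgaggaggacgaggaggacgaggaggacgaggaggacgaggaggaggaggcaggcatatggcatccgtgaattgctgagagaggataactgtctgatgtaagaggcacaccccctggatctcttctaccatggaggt
Klrg1 downstream, CA repeat: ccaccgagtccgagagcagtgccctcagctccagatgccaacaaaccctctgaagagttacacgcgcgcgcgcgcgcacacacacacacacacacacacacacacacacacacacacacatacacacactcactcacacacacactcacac
Klrb1c downstream: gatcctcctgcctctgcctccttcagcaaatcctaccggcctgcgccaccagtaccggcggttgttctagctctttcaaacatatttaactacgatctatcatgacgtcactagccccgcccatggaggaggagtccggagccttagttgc
Klrb1c upstream: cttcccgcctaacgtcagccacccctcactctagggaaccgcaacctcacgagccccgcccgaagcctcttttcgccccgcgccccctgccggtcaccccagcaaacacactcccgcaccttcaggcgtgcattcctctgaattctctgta
Klrd1 start: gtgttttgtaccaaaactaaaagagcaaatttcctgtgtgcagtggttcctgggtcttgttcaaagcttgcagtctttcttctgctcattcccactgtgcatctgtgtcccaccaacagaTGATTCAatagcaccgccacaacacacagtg
Klrd1 to Klrk1: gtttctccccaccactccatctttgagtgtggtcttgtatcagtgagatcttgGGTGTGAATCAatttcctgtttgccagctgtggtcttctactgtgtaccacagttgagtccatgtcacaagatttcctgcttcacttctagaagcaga

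Both Klrg1 sequences are built in part from short tandem repeats, and of the merged regions they stand for 47.0% and 62.9% of the bases were repeat-masked. Neither they nor the pair around Klrb1c held any of the 5 motifs. The Klrd1 start sequence held an AP-1 match at base 121. In the sequence between Klrd1 and Klrk1, a T-box match at base 54 and an AP-1 match at base 58 overlapped. Of 1188 regions of the same length on chromosome 6 held by at least 3 libraries, 3.62% had the AP-1 letters and 2.27% the T-box letters, against 4.39% and 1.83% of 14629 windows of that length spaced evenly along the chromosome. The shares for the motifs that none of the 6 sequences held were 3.37% and 3.68% for RUNX, 4.12% and 5.69% for STAT and 5.89% and 3.35% for ETS.

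The lists differed widely in length, and the number of receptor genes held moved with it. A list had 2290 to 19234 peaks in WT TE, 32906 to 78635 in TPdh-/- TE, 13304 to 54892 in WT TM and 60189 to 86637 in TPdh-/- TM. Background coverage, given as fragments per base, solved from the peak values and the only measure of depth used here, went the other way, at 0.636 to 1.55 in WT TE and 0.186 to 0.261 in TPdh-/- TM. The weakest peak of a list rested on 5 to 9 fragments in WT TE and on 3 in each TPdh-/- TM list. Across all protein-coding genes, a library held from 17.1% (WT TE replicate 3) to 86.2% (TPdh-/- TM replicate 2). Markers of other lineages did not separate in such windows, since 9 of 16 libraries held Cd8a, 13 held Cd4 and 8 held the NK cell gene Ncr1, so the cell type could not be checked by this measure. The deletion of Pdha1 could not be checked from peak lists either.

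WT TE libraries held 3, 3, 0 and 0 of the 7 receptor genes in replicates 1 to 4, and TPdh-/- TE libraries held 4, 3, 6 and 5. In WT TM the numbers were 5, 4, 1 and 4, and in TPdh-/- TM they were 4, 6, 6 and 7. TPdh-/- TM replicate 4 was the only library to hold all 7, or 6 counted by summits. WT TE replicates 3 and 4, with the shortest lists, held none. The mean was 1.5 ± 1.73 (SD, n = 4) in WT TE, 4.5 ± 1.29 in TPdh-/- TE, 3.5 ± 1.73 in WT TM and 5.75 ± 1.26 in TPdh-/- TM. If the receptors had been held as often as the average protein-coding gene in the same lists, the means would have been 2.67, 5.06, 4.0 and 5.78. This expectation does not allow for gene length, which was 6994 to 13542 bp for the receptors against a median of 17.4 kb for all genes. Nor does it allow for the overlap of neighbouring windows, in which 1 peak counts for several receptors. Held minus expected was -1.17 ± 0.959 (SD, n = 4) in WT TE, -0.558 ± 0.489 in TPdh-/- TE, -0.505 ± 0.763 in WT TM and -0.0325 ± 1.24 in TPdh-/- TM, with 4, 3, 3 and 2 of the 4 libraries below their own expectation. WT TE replicate 1 was only just below it, at 3 against 3.05.

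**Figure D1:**
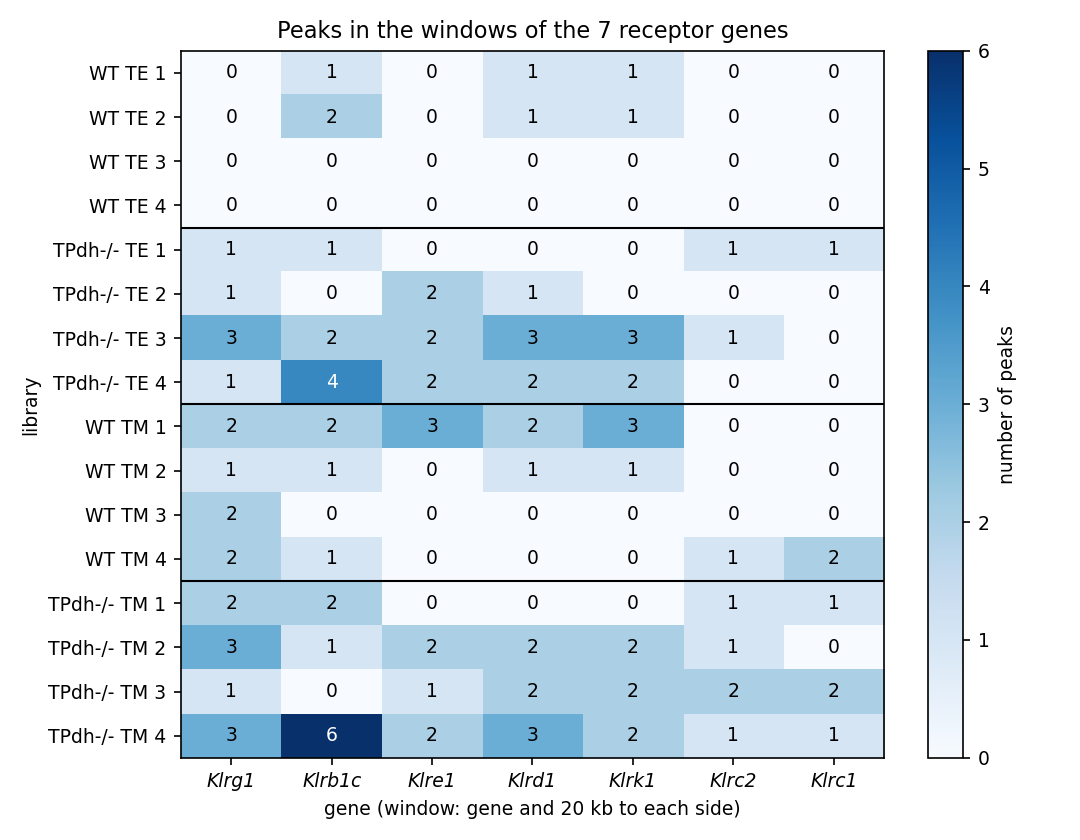
Number of peaks in the window of each receptor gene (columns, in chromosome order) in each library (rows, 4 per group), printed in the cell and shown by the colour. WT TE replicates 3 and 4 have 0 in every column, WT TE has 0 in all 4 rows of Klrg1, and the highest cell is the 6 peaks at Klrb1c in TPdh-/- TM replicate 4; a peak in overlapping windows is counted in each.

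Counted once where windows overlap, 76 of the 645567 peaks lay in the 7 windows, which cover 0.00896% of the chromosomes. The length of each list predicts 57.8 peaks for that span. Group sums were 5 in WT TE (3.17 predicted), 23 in TPdh-/- TE (18.2), 18 in WT TM (11.4) and 30 in TPdh-/- TM (25.0). TPdh-/- TM replicate 4 alone gave 13 peaks against 5.96 predicted, and TPdh-/- TM replicates 1 to 3 gave 5, 7 and 5 against 5.88, 7.76 and 5.39. The sum of TPdh-/- TM above its prediction was thus that of a single library, while WT TM lay above prediction in each of its 4 libraries (8, 3, 2 and 5 against 4.92, 2.15, 1.19 and 3.15).

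**Figure D2:**
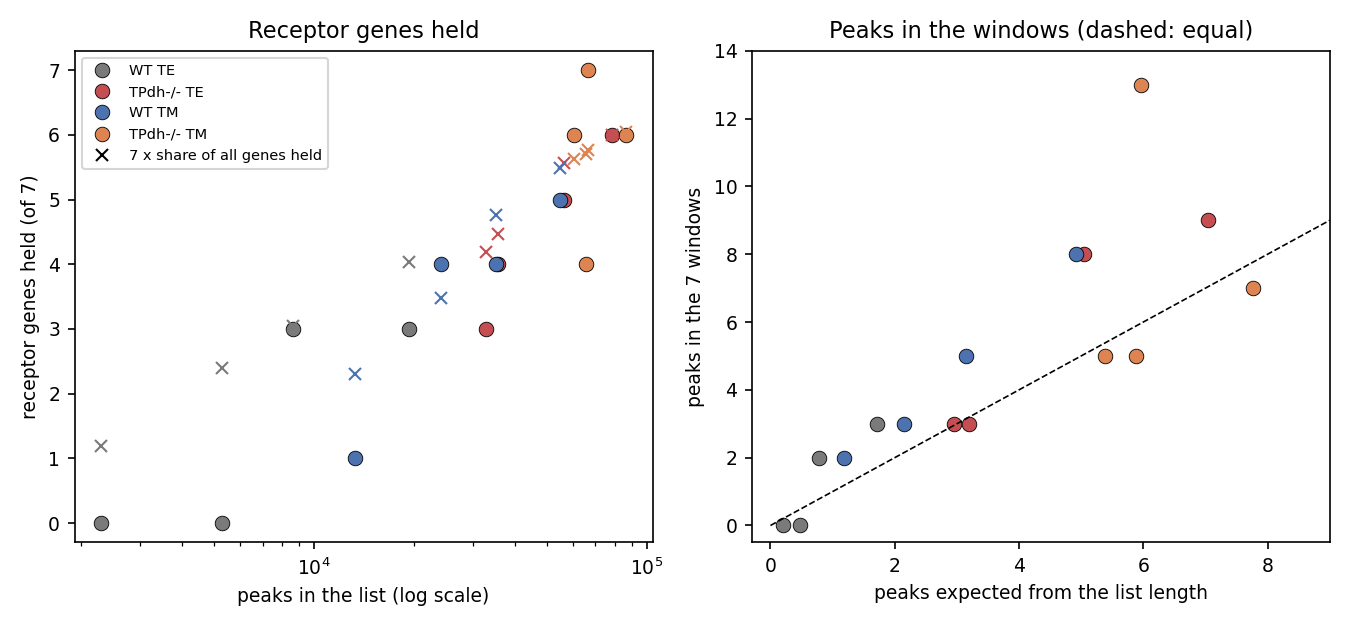
Left, receptor genes held (of 7) against the number of peaks in the list (log scale), one filled point per library, coloured by group; crosses give 7 times the share of all protein-coding genes held by that library. Right, peaks in the 7 windows against the number that the list length predicts, with a dashed line of equality; the point farthest above it is TPdh-/- TM replicate 4, with 13 peaks against 5.96.

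Most of these peaks were weak. Their fold enrichment, the summit pileup over the local background with 1 added to each, ran from 3.11 to 11.46 with a median of 4.73, and their −log10 q-value from 1.34 to 15.95 with a median of 3.215. The summit of 56 of the 76 peaks rested on 6 fragments or fewer. By position, 52 summits were intergenic, 23 intronic and 1, in Klre1, exonic, and 5 lay within 1000 bp of a receptor gene's annotated start. A −log10 q-value of at least 5 was reached by 12 peaks, of which 1 was in WT TE, 1 in TPdh-/- TE, 2 in WT TM and 8 in TPdh-/- TM. TPdh-/- TM replicate 4 gave 4 of these 8 and replicates 1 to 3 gave 1, 1 and 2. At that limit were 1 of 5 peaks in WT TE, 1 of 23 in TPdh-/- TE (4.35%), 2 of 18 in WT TM (11.1%) and 8 of 30 in TPdh-/- TM (26.7%), compared with 26.2%, 10.8%, 12.7% and 11.3% of all peaks in their lists. Of the 55 regions that the 76 peaks merged into, 13 (23.6%) were held by 2 libraries or more, compared with 13.1% of all 525048 regions.

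**Figure D3:**
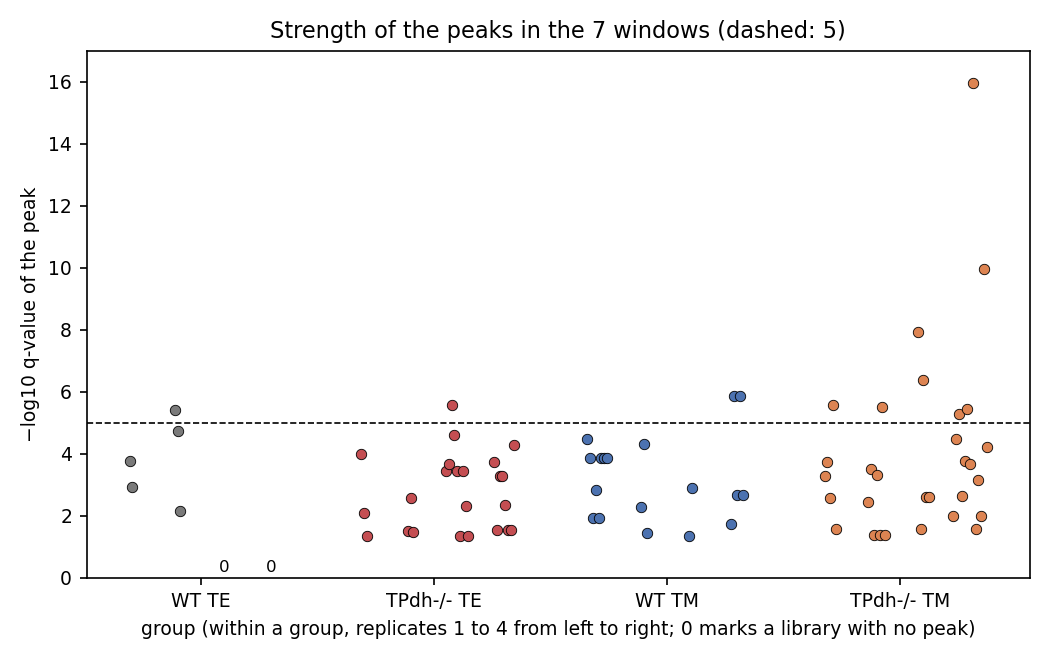
The −log10 q-value of each of the 76 peaks, by group and, within a group, by replicate; the dashed line is at 5. TPdh-/- TM has 8 points above the line, including the highest, at 15.95, while WT TE and TPdh-/- TE have 1 each.

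The comparisons ask whether loss of the complex changes where chromatin is open near these receptors in TM and in TE, and whether TM differ from TE in each genotype. Fisher's exact test, two-sided, was applied to the libraries that did and did not hold each gene. In this test, 4 against 0 gives the smallest possible p, 0.0286, and p-values were adjusted over all 21938 genes. No gene of any kind reached an adjusted p under 0.05 by this exact test in any comparison. Unadjusted, 252 genes passed in TPdh-/- TM against WT TM, 1093 in TPdh-/- TE against WT TE, 384 in WT TM against WT TE and 63 in TPdh-/- TM against TPdh-/- TE. An exact permutation test of peaks per 10000 peaks of the list also left 0 genes after adjustment, and 709, 2592, 1609 and 653 unadjusted in the same order. Of the receptors, only Klrg1 passed unadjusted, and only in the comparisons that involve WT TE.

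Klrg1 (chr6:122270596-122282882, minus strand) encodes an inhibitory receptor that binds classical cadherins. The number of peaks in its window was 0, 0, 0 and 0 in WT TE, 1, 1, 3 and 1 in TPdh-/- TE, 2, 1, 2 and 2 in WT TM and 2, 3, 1 and 3 in TPdh-/- TM. All 12 libraries outside WT TE thus held it and no WT TE library did. The 4 against 0 split had an unadjusted exact p of 0.0286 both for TPdh-/- TE against WT TE (adjusted p = 0.573) and for WT TM against WT TE (adjusted p = 1.0). These comparisons share the WT TE libraries. In TPdh-/- TM against WT TM, and in TPdh-/- TM against TPdh-/- TE, the count was 4 against 4.

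The same 12 and 0 pattern was shown by 164 protein-coding genes, or 0.748%. Their median length was 127 kb, compared with 17.4 kb for all genes and 12.3 kb for Klrg1. Per 10000 peaks of a list, Klrg1 had 0.286 ± 0.0843 (SD, n = 4) in TPdh-/- TE, 0.713 ± 0.534 in WT TM, 0.317 ± 0.118 in TPdh-/- TM and 0 in WT TE. The WT TM libraries had 0.364, 0.417, 1.5 and 0.569, and without replicate 3, the highest, their mean was 0.45 ± 0.106 (n = 3). Since every WT TE value is 0, the exact permutation test on that scale could only return the p of the 4 against 0 split again, 0.0286 (adjusted p = 0.242 for TPdh-/- TE and 0.39 for WT TM), and does not allow for list length. For TPdh-/- TM against WT TM, with all libraries, the exact permutation p was 0.114.

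No single region accounted for the Klrg1 counts. The 22 peaks fell into 14 regions, of which 6 (42.9%, against 13.1% of all regions) were held by 2 or 3 libraries and contained 14 of the peaks. Within a group no region was held by more than 2 libraries. In TPdh-/- TE, the 6 peaks were 6 different regions, at -6621 bp from the start of the gene in replicate 1, -17520 bp in replicate 2, 25189, -7895 and -13908 bp in replicate 3 and 29381 bp in replicate 4, where positive values are downstream. The 7 peaks of WT TM were likewise 7 regions, and only WT TM had peaks within the gene, both intronic, at 2889 bp in replicate 2 (fold enrichment 4.43) and at 8465 bp in replicate 4 (6.60). TPdh-/- TM had 9 peaks in 7 regions.

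With a flank of 5 kb in place of 20 kb, Klrg1 was held by 0 of 4 libraries in WT TE and 0 of 4 in TPdh-/- TE, by 2 of 4 in WT TM and by 1 of 4 in TPdh-/- TM. The unadjusted call was thus lost with the narrower flank. In lists shortened to their 2290 strongest peaks, the length of the shortest list, no library of WT TE, TPdh-/- TE or WT TM held any of the 7 receptors, so that setting could not test the call.

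The strongest Klrg1 peak lay downstream of the gene. At the CA repeat, 23751 bp from the start, TPdh-/- TM replicate 3 had a fold enrichment of 7.67 with a −log10 q-value of 7.92, WT TM replicate 1 had 5.57 and TPdh-/- TM replicate 2 had 5.01. At the GA-rich repeat, 25251 bp from the start, TPdh-/- TE replicate 3, TPdh-/- TM replicate 1 and TPdh-/- TM replicate 2 had 4.77, 4.67 and 4.22. No WT TE library held either repeat region. The nearest peak to the start of the gene was in TPdh-/- TM replicate 4, at -1046 bp, with a fold enrichment of 3.37 on 3 fragments.

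**Figure D4:**
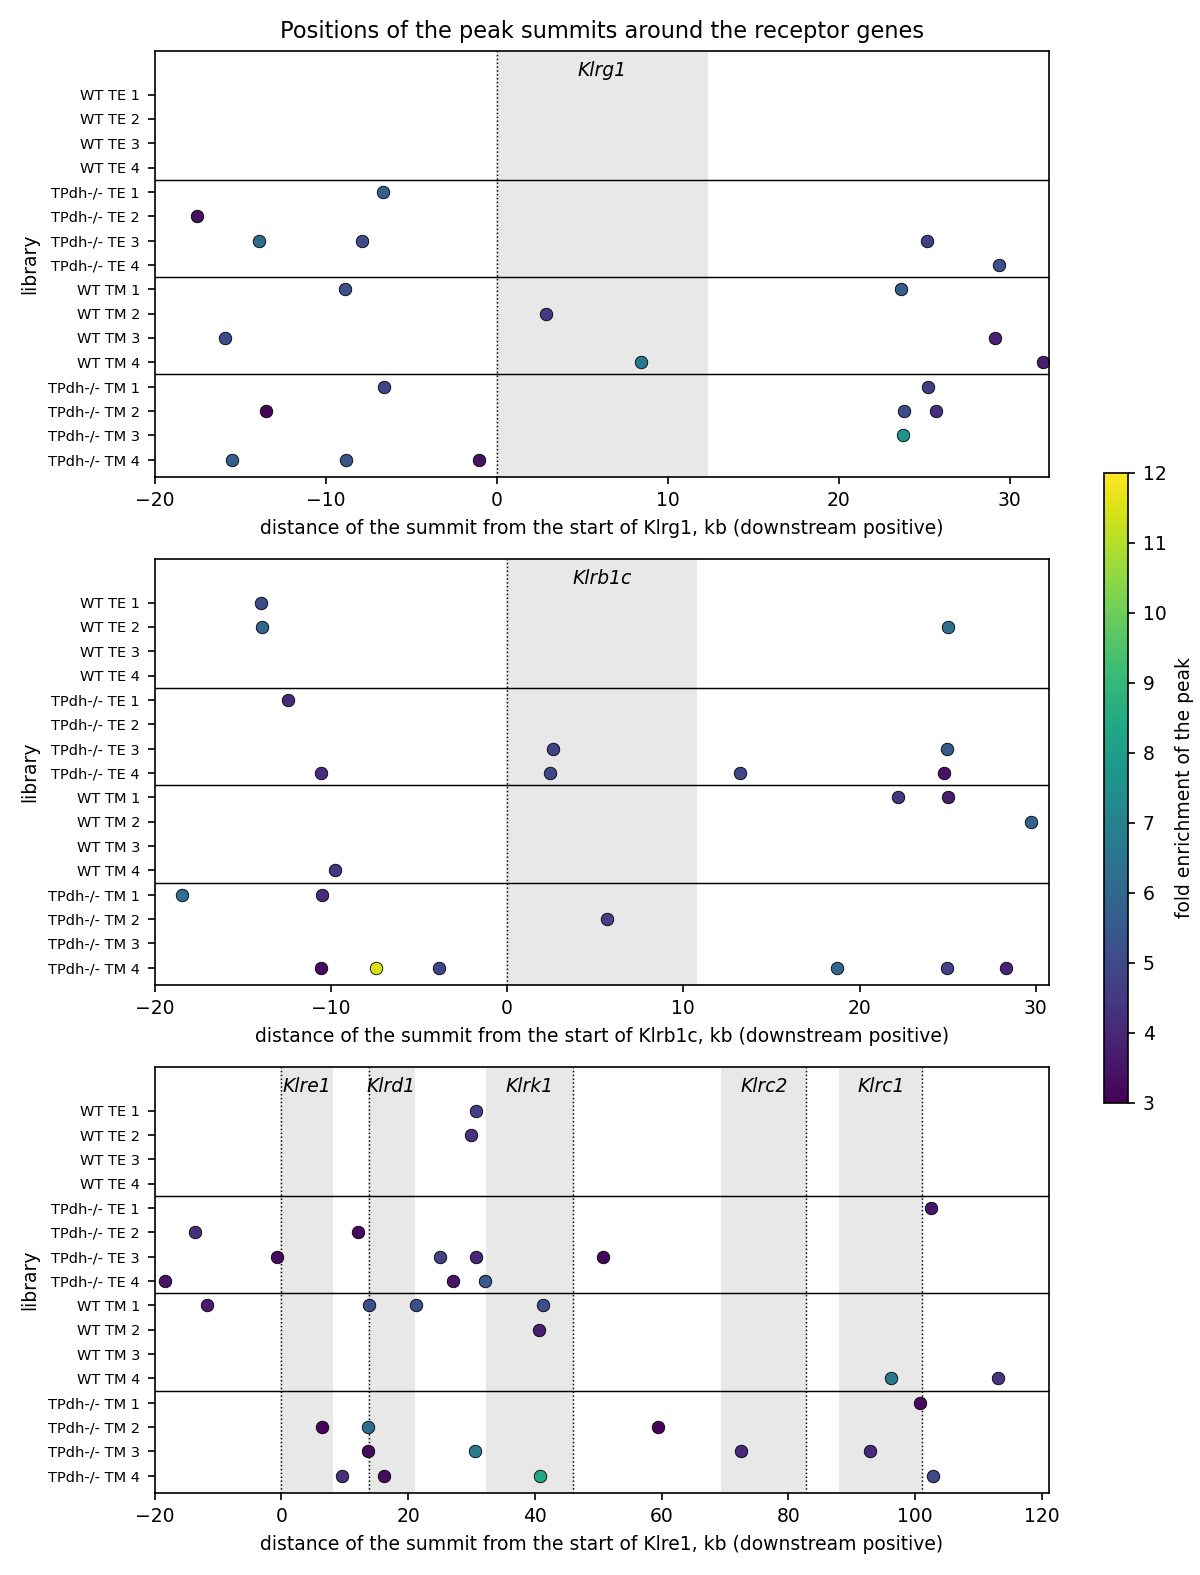
Summit of each peak (points, coloured by fold enrichment) in each library (rows), as distance in kb from the start of Klrg1 (top), Klrb1c (middle) and Klre1 (bottom); grey bands are gene bodies and dotted lines are gene starts. Klrg1 summits are spread over the window and absent from WT TE, 5 libraries line up near 25 kb downstream of Klrb1c, and 3 line up at the start of Klrd1.

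Klrd1, Klrc1 and Klrc2 encode the CD94/NKG2 receptors. Klrd1 (CD94, chr6:129591782-129598775, plus strand) is the shared partner chain, Klrc1 the inhibitory chain NKG2A and Klrc2 the activating chain NKG2C, and the pairs bind the non-classical class I molecule Qa-1, encoded by H2-T23. Klrd1 was held by 2 of the 4 libraries in both WT groups, TE and TM, and by 3 of the 4 in both TPdh-/- groups. No comparison of Klrd1 differed by more than 1 library, and each had an exact p of 1.0. At a −log10 q-value of at least 5, and in lists of equal length (the 13304 strongest peaks of each, a setting chosen after seeing the data), Klrd1 was held by 3 TPdh-/- TM libraries and 0 WT TM libraries (exact p = 0.143).

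Klrd1 was the member with the most peaks at its start. Its start region (chr6:129591508-129591912) was held by WT TM replicate 1, with a fold enrichment of 5.17, and by TPdh-/- TM replicates 2 and 3, with 6.23 and 3.25. The summits lay at -13, -146 and -204 bp from the annotated start. No TE library of either genotype held it, but with 3 of 8 TM libraries and 0 of 8 TE libraries over both genotypes the difference was not one of the comparisons tested. Of the other starts, those of Klre1 and Klrc1 had a peak within 1000 bp in 1 library each, a peak reached to within 1000 bp of the Klrg1 start in 1 library, and those of Klrb1c, Klrk1 and Klrc2 had none in any. In the same libraries, 3.44% to 28.3% of all protein-coding starts had such a peak.

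Klrc2 (chr6:129647496-129660689, minus strand) was held by 0 of the 4 WT TE and 1 of the 4 WT TM libraries, and by 2 TPdh-/- TE and all 4 TPdh-/- TM libraries. It had the largest difference of any member in TPdh-/- TM against WT TM, at 4 against 1 (exact p = 0.143, adjusted p = 1.0). The single WT TM library with a Klrc2 peak was replicate 4. Leaving it out makes the split complete whatever the other values, and so returns the smallest possible exact p, 0.0286. With any other library left out the exact p stayed at 0.143. WT TM replicate 4 also had the strongest of the Klrc2 peaks (intronic in Klrc1), with a −log10 q-value of 5.87. At a limit of 5 the split turned to 0 against 1. All 8 peaks of Klrc2 also lay in another window, and they were 8 different regions, so no position was seen in 2 libraries.

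Klrc1 (chr6:129666015-129678973, minus strand) was held least often, by 5 libraries, which were 0 in WT TE, 1 in WT TM, 1 in TPdh-/- TE and 3 in TPdh-/- TM. Its difference in TM was 3 against 1 (exact p = 0.486). The strongest peak was intronic, 4918 bp from the start in WT TM replicate 4, with a fold enrichment of 6.60, and is the peak counted for Klrc2 above. TPdh-/- TM replicate 1 had a peak at 375 bp from the start with a fold enrichment of 3.28 on 3 fragments.

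The windows of Klrc2 and Klrc1 hold the most repeated sequence of the family. Of all stretches as long as a read, 70.7% in the Klrc2 window and 79.4% in the Klrc1 window occurred once in the chromosomes, compared with 92.6% for Klrk1 and 96.2% to 98.8% for Klrg1, Klrb1c, Klre1 and Klrd1, and with 94.6% over chromosome 6. Within the genes alone the shares were 67.7% for Klrc2 and 72.3% for Klrc1. The authors kept reads that mapped to 1 place, and the part of this in the low counts of both genes was not tested.

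Klrk1 (chr6:129610323-129623864, minus strand) encodes NKG2D, the activating receptor for stress ligands of the Raet1, H60 and Ulbp families. It was held by 2 of the 4 libraries in every group but TPdh-/- TM, where 3 held it, and no comparison differed by more than 1 library (exact p = 1.0 in each). At the stricter q-value limit and in lists of equal length it too was held by 3 TPdh-/- TM and 0 WT TM libraries (exact p = 0.143), and at that limit the peaks were the same 3 as for Klrd1. Its strongest peak was intronic, 5166 bp from the start in TPdh-/- TM replicate 4, with a fold enrichment of 8.36 and a −log10 q-value of 9.96, and lay in the Klrd1 window as well. WT TM replicate 2 had a peak at the same place, at 3.69 and 1.45.

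The region between Klrd1 and Klrk1 that carries the overlapping T-box and AP-1 letters (chr6:129608261-129608756) was held across groups. Its fold enrichment was 4.70 in WT TE replicate 1, 3.97 in TPdh-/- TE replicate 3 and 6.73 in TPdh-/- TM replicate 3. The 3 summits fell within 55 bp, the tightest of the 6 regions. This region and another peak 16034 bp from the Klrd1 start, in WT TE replicate 2, made up all WT TE peaks in the 141069 bp from the Klre1 window to the Klrc1 window.

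Klrb1c (chr6:128778485-128789215, minus strand) encodes the NK cell antigen NKR-P1C. Peak numbers in its window were 1, 2, 0 and 0 in WT TE, 1, 0, 2 and 4 in TPdh-/- TE, 2, 1, 0 and 1 in WT TM and 2, 1, 0 and 6 in TPdh-/- TM. It was held by 2, 3, 3 and 3 libraries of these groups, and the exact p was 1.0 in all 4 comparisons. The groups overlapped fully, and the 6 peaks came from TPdh-/- TM replicate 4.

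Klrb1c had the region shared by most libraries of the family. The downstream region (chr6:128764032-128764524), 24975 bp from the start, was held by WT TE replicate 2 with a fold enrichment of 6.34, TPdh-/- TE replicates 3 and 4 with 5.56 and 3.46, WT TM replicate 1 with 3.69 and TPdh-/- TM replicate 4 with 4.76. All 4 groups were present, and the highest value was that of WT TE. The upstream region (chr6:128799601-128800285), in an intron of the overlapping gene Gm44511, was held by TPdh-/- TE replicate 4, TPdh-/- TM replicate 1 and TPdh-/- TM replicate 4, with fold enrichments of 4.15, 4.10 and 3.25. WT TE replicates 1 and 2 shared a region of their own at -13940 and -13909 bp, with 5.01 and 5.98.

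The strongest peak of the whole family was also at Klrb1c, and was seen once. It lay at chr6:128796529-128796697, -7438 bp from the start, in TPdh-/- TM replicate 4, with a fold enrichment of 11.46, a −log10 q-value of 15.95 and a pileup of 17 fragments. In that list it ranked 420th by q-value, within the top 0.631%. No other library had a peak there.

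Klre1 (chr6:129577905-129585827, plus strand) encodes a receptor that pairs with Klri1 or Klri2. It was held by 0 of the 4 WT TE and 1 of the 4 WT TM libraries, and by 3 of the 4 in each TPdh-/- group. In TPdh-/- TE against WT TE the split was 3 against 0 (exact p = 0.143, adjusted p = 0.635), and in TPdh-/- TM against WT TM it was 3 against 1 (exact p = 0.486). Of its 14 peaks, 11 lay in the window of a neighbour too, and 1, in TPdh-/- TE replicate 3, was near its start, at -609 bp with a fold enrichment of 3.18 on 3 fragments.

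The members' counts were read against those of all genes. In TPdh-/- TM against WT TM, 0 of 7 members passed the unadjusted test with more TPdh-/- TM libraries (1.14% of all genes did) and 1, Klrc2, was held by at least 3 more (8.48% of all genes). In TPdh-/- TE against WT TE, 1 member passed (4.97% of all genes) and 2, Klrg1 and Klre1, were held by at least 3 more (22.3%). In WT TM against WT TE, Klrg1 alone met either rule, against 1.74% and 10.7% of all genes. In TPdh-/- TM against TPdh-/- TE, no member met either, against 0.26% and 2.62%.

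With all peaks and the 20 kb flanks, no member was held by fewer libraries of the first-named group in any of these comparisons. Under other settings some were, Klrg1 in TPdh-/- TM against WT TM among them. More libraries of that group held 5, 6, 5 and 3 of the 7 members in the order above, or 71.4%, 85.7%, 71.4% and 42.9%, compared with 66.8%, 72.3%, 56.5% and 41.9% of all genes. The median difference was 1, 1, 1 and 0 libraries for the members and the same for all genes. The mean difference was 1.29, 1.71, 1.14 and 0.714 libraries for the members, compared with 1.02, 1.37, 0.764 and 0.414 for all genes.

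The other receptors of the NK gene complex, 29 genes with the Klra, Klrb1 and Clec families among them, were compared as a fixed list. In TPdh-/- TM against WT TM, 19 of 29 (65.5%, against 66.8% of all genes) were held by more TPdh-/- TM libraries and 3 by fewer, and none was 4 against 0. Klra6 and Clec12a were held by 4 against 1 and Klra4 by 3 against 0 (exact p = 0.143 for each). Of all genes, 8.48% differed by at least 3 libraries in this direction. In TPdh-/- TE against WT TE, 26 (89.7%, against 72.3% of all genes) were held by more TPdh-/- TE libraries and 2 by fewer. Klra17 and Clec1a were 4 against 0 (exact p = 0.0286, adjusted p = 0.573 for both), a call that 4.97% of all genes met. Klra2, Klra7, Klrb1f and Clec2g were 4 against 1 there, and Klra8 and Klri1 3 against 0, where 22.3% of all genes differed by at least 3.

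In WT TM against WT TE, Clec1a, which encodes another C-type lectin-like receptor, was 4 against 0, Olr1 4 against 1 and Klra17 3 against 0. Of all genes, 1.74% were 4 against 0 in this direction and 10.7% differed by at least 3 libraries. Of the 29 receptors, 21 (72.4%, against 56.5% of all genes) were held by more TM libraries and 4 by fewer. In TPdh-/- TM against TPdh-/- TE, 12 (41.4%, against 41.9% of all genes) were held by more and 8 by fewer. Clec1b was 4 against 0 there (0.26% of all genes) and Clec2d 4 against 1, where 2.62% of all genes differed by at least 3. Clec1a had the same pattern over the 16 libraries as Klrg1, held by all 12 outside WT TE, which 164 protein-coding genes (0.748%) showed. Cd69, an early activation marker in the complex, was held by 14 libraries, with all 4 of WT TE among them, and so by more WT TE libraries than any of the 7 receptors. Klrc3, the neighbour of Klrc2, was held by 4.

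Among 9 ligand genes, 4, 6, 4 and 2 were held by more libraries of the first group in the order above and 1, 1, 2 and 2 by fewer. The shares held by more were 44.4%, 66.7%, 44.4% and 22.2%, compared with 66.8%, 72.3%, 56.5% and 41.9% of all genes. Cdh2, a cadherin bound by Klrg1, was 4 against 0 in both comparisons with WT TE, as Klrg1 was (exact p = 0.0286, adjusted p = 0.573 and 1.0). Of all genes, 4.97% had that split in TPdh-/- TE against WT TE and 1.74% in WT TM against WT TE. Cdh2 also had the 12 and 0 pattern of Klrg1. The 164 genes with that pattern had a median length of 127 kb, against 17.4 kb for all genes. The other cadherins of the list did not show this split, Cdh1 being held by 4 WT TE, 3 WT TM, 4 TPdh-/- TE and 4 TPdh-/- TM libraries and Cdh4 by 2 WT TE libraries and all 4 of each other group. H2-T23, the ligand gene of the CD94/NKG2 receptors, was held by 4 WT TE, 3 WT TM, 3 TPdh-/- TE and 2 TPdh-/- TM libraries. Among 13 adaptor and signalling genes, 12, 8, 3 and 4 were held by more libraries of the first group and 0, 1, 4 and 2 by fewer. The shares held by more were 92.3%, 61.5%, 23.1% and 30.8%, above the share of all genes in TPdh-/- TM against WT TM and below it in the other comparisons. Only Zap70, a kinase of T cell receptor signalling, was 4 against 0, in TPdh-/- TE against WT TE (exact p = 0.0286, adjusted p = 0.573). Hcst and Tyrobp, the adaptors of Klrk1, were held by 11 and 10 libraries. In the marker lists of other and own cell types, Cd79b was 4 against 0 in that same comparison. Cd4, Cd247, Pax5 and Csf1r were 4 against 1 and Lyz2 3 against 0, where 22.3% of all genes differed by at least 3 libraries in this direction. Of 9 CD8 T cell markers, 6 were held by more TPdh-/- TE libraries and 1 by fewer. The counts were 6 and 1 of 8 NK cell, 2 and 0 of 2 CD4 T cell, 6 and 0 of 6 B cell and 5 and 1 of 6 myeloid markers. Cd4 and Pax5 were 4 against 1 and Cd79b 3 against 0 in WT TM against WT TE (10.7% of all genes), and Cd14 was 4 against 1 in TPdh-/- TM against WT TM (8.48%). In WT TM against WT TE the counts held by more and by fewer were 7 and 1, 4 and 2, 1 and 1, 5 and 0, and 5 and 0 in the same order of lists. In TPdh-/- TM against WT TM they were 5 and 0, 4 and 2, 1 and 0, 3 and 0, and 4 and 0.

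Likeness was measured as Pearson's r of the highest fold enrichment per library over the 16 libraries. These points differ in list length and depth, which every gene of a library shares. The genes most like Klrg1 were Pam (r = 0.976), Vwc2l (0.973) and Uaca (0.958), each held by the same number of libraries, 12. As many as 1381 genes had an r above 0.7 with Klrg1. For Klrb1c the nearest was Ccdc166 (0.891), for Klre1 A830005F24Rik (0.965), for Klrd1 Lrrc32 (0.883), for Klrk1 Prkab1 (0.916), for Klrc2 Vmn2r95 and Sirpb1b (0.935 each) and for Klrc1 Fthl17a (0.923), and 111 to 524 genes exceeded 0.7 for these 6 members. None of the genes named lies on chromosome 6.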

How the data were processed

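The data were 16 deposited peak lists, 1 per ATAC-seq library, from mouse CD8+ TE and TM cells. Groups and replicate numbers came from the library titles. Per the study's methods and the submitters' processing notes, the authors trimmed read pairs with Trimmomatic, aligned them to GRCm38 with BWA 0.7.17, kept reads mapped to 1 place outside blacklisted regions and called peaks with MACS2 2.2.7.1 on fragments. A control library and a cut-site offset are not given in the sources used here. For each peak the authors deposited a fold enrichment (a ratio of pileup to background, 1 added to each) and the −log10 of its p-value and of its q-value. These values were not scaled between libraries.

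From these files, presence of a peak overlapping each GENCODE M21 gene or its 20000 bp flanks was computed for 21938 protein-coding genes on chromosomes 1 to 19, X and Y, with Python 3.11.15 and scipy 1.17.1. Groups of 4 were compared with Fisher's exact test (two-sided) and Benjamini-Hochberg adjustment over all genes in each comparison, and peaks per 10000 by exact permutation over 70 arrangements. Summit pileup and background were solved from the deposited ratio and Poisson p-value of each peak. The scripts were tested on simulated data. Peaks of all libraries overlapping by at least 1 bp were merged into regions. Those held by at least 4 libraries were to be named, or, since fewer than 5 were, those held by at least 3. Named genes were all members, genes of the fixed lists differing by at least 3 libraries, and the 3 genes most like each member, of which the closest are given. Of the receptor list, 29 of 31 symbols matched a protein-coding gene. RefSeq promoter sequences matched 5 of 7 members and are not printed, since the only start held by several libraries is printed from the genome. Alternatives were other flanks, thresholds, list lengths, left-out libraries and the replicate block. Read totals were not analysed here, so depth is known only as background coverage. Precision is that of 4 libraries per group. The members and lists were chosen with earlier results of these data known.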

Additional observations from a re-analysis of the deposited data

How the results depend on the processing

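Of 28 comparisons of members, 2 were past the unadjusted exact threshold, both for Klrg1. Of 34 repeats of these 2 under other settings, 14 lost the call and 20 kept it, 16 of them by leaving out 1 library. Leaving 1 library out of a 4 against 0 split leaves a complete split, so those 16 could not lose the call. The permutation of peaks per 10000, which also kept it, could only return the same exact p. The number of members past the threshold in TPdh-/- TE against WT TE and in WT TM against WT TE was 1, Klrg1. It fell to 0 in each with a flank of 5 kb, the gene alone, and a −log10 q-value or fold enrichment of at least 5. Equal-sized lists of 2290 peaks and the replicate block gave 0 in each as well. Lists of equal length within a comparison, a setting chosen after seeing the data, are the same 2290 peaks in both comparisons, and at that length no library of these 3 groups held any member. Leaving out libraries gave 1 to 2 in the first, where Klre1 joined without TPdh-/- TE replicate 1. It gave 0 to 1 in TPdh-/- TM against WT TM, where Klrc2 joined without WT TM replicate 4. In each case the library left out was the only one that kept the split from being complete. The replicate block cannot go below an exact p of 0.125, and the numbers did not pair the libraries (correlations of same-numbered libraries -0.032 to 0.0755, none over 0.1, though 3 of 4 libraries correlated best with their own number in WT TM against WT TE, at 0.0309 to 0.0755, and in TPdh-/- TM against TPdh-/- TE). The difference in mean members held was 2.25 in TPdh-/- TM against WT TM, 0.25 with the gene alone, 0.5 in equal-sized lists, 0.75 at a fold enrichment of 5, 1.25 in lists of equal length and 1.42 (without WT TM replicate 3) to 2.83 on leaving out a library. It was 3.0 in TPdh-/- TE against WT TE, 1.75 with a flank of 5 kb, 0.5 with the gene alone, 1.0 at a fold enrichment of 5, and 0.0 at a −log10 q-value of 5 and in the lists of 2290 peaks (2.5 to 3.5 on leaving out a library). It was 2.0 in WT TM against WT TE, 1.0 with a flank of 5 kb, 0.5 at a −log10 q-value of 5 and 0.0 in the lists of 2290 peaks (1.5 to 2.83 on leaving out a library). It was 1.25 in TPdh-/- TM against TPdh-/- TE, 2.5 at a −log10 q-value of 5, 0.5 in equal-sized lists and 0.75 (without TPdh-/- TE replicate 2) to 1.83 on leaving out a library. The direction turned, with no call, to -25.0 percentage points of libraries for Klrk1 with the gene alone and for Klrc2 and Klrc1 at either stricter limit and in lists of equal length (TPdh-/- TM against WT TM), and for Klrb1c at either stricter limit in TPdh-/- TE and WT TM against WT TE. In TPdh-/- TM against WT TM, the difference grew from 1 to 3 libraries for Klrd1 and Klrk1 at a −log10 q-value of 5 and in lists of equal length. It grew to 2 at a fold enrichment of 5. In equal-sized lists it was 0 for both, and with the gene alone it was 0 for Klrd1. In peaks per 10000 the direction turned, to -0.025 for Klrk1 in TM by genotype, -0.238 for Klrb1c and -0.159 for Klrd1 in TE by genotype, and -0.282 for Klrb1c in WT TM against WT TE. Klrg1, with no difference in TPdh-/- TM against WT TM, went to -50.0 percentage points with the gene alone. It went to -25.0 with a flank of 5 kb and in lists of equal length, and to 25.0 at a −log10 q-value of 5 and in equal-sized lists. The causes were not tested. Of the 76 peaks, 56 rest on 3 to 6 fragments.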
